A study of Mus musculus with 8 samples.

Results

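The genes described are the Toll-like receptors, the C-type lectin family, the NOD-like receptors and the scavenger and mannose receptors of the innate immune system, measured in cultured mouse bone marrow stroma. They were chosen by name alone: every row of the deposited table whose gene name was Tlr with a number, Clec with a number, Nlr with any ending, Nod1, Nod2, Msr1, Marco, Mrc1 or Mrc2. That gave 69 rows, each with a different name, of 49868 named loci. The set held 10 Toll-like receptors, 32 C-type lectin family genes, 24 NOD-like receptors and 3 scavenger and mannose receptors. Tlr2, Tlr8, Clec2d, Clec4n and Mrc2 carried no name in the table and were not analysed here. The name rule also took in family members that are not known as pattern receptors, among them Clec11a, a secreted growth factor of bone also called osteolectin, and Clec16a, a regulator of autophagy.

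The 4 Has-tKO libraries came from mesenchymal stem cells (MSc) of 4 mice that lack Has1 and Has3 from the germline and lose Has2 after 4-hydroxytamoxifen. The 4 wildtype libraries came from MSc of 4 C57Bl6/J mice that were given 4-hydroxytamoxifen in the same way. The genes Has1, Has2 and Has3 encode the enzymes that make hyaluronan, a polysaccharide of the extracellular matrix, and the study followed how their loss bears on bone formation in culture. All cells were taken from femora and tibiae, passaged 4 times, given 4-hydroxytamoxifen over 48 h during passages 2 and 3 and harvested on day 7 in osteogenic medium. The promoter that drives the inducible recombinase and the strain background of the Has-tKO mice are not named in the labels or notes at hand, and nothing separates the 3 deletions from one another. Any difference in strain would follow genotype and could not be told apart from it. MSc obtained by adherence to plastic can keep blood cells of the marrow, and no sort is described.

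Toll-like receptors sit at the cell surface or in endosomes, where they bind microbial lipids, proteins and nucleic acids and signal through Myd88 or Ticam1 to NF-kappaB. C-type lectin receptors such as Clec4e and Clec7a bind glycolipids and glucans and signal through the kinase Syk and the adaptor Card9, while NOD-like receptors sense microbial products and damage inside the cell and some of them build inflammasomes. Macrophages carry most of these receptors, and fragments of hyaluronan have been described as ligands of Tlr2 and Tlr4.

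Levels are FPKM as deposited, given per library or as mean ± SD with n = 4 mice per genotype. Library sums lay between 198221 and 259871 FPKM, the depth in reads is unknown, and median-ratio size factors ran from 1.08 to 1.15 in Has-tKO libraries and from 0.660 to 1.08 in wildtype libraries. Wildtype 1 stood apart with the size factor of 0.660, 61.5% of its FPKM on loci without a name and 8327 named loci at 1 FPKM or more, and the other 7 had 9679 to 10357. Has-tKO 4 had the highest share of unnamed FPKM in its genotype, 56.4%. The limma comparisons of genes at 1 FPKM or more were therefore made on the values as deposited and again after median-ratio scaling. Differences are log2(FPKM + 1) in Has-tKO minus wildtype, tested with limma, and adjusted p-values are Benjamini-Hochberg values over all named loci that reached 1 FPKM in at least 4 libraries. Of the targeted genes only Has3 had a named row, with 0.663, 0.576, 0.621 and 0.150 FPKM in Has-tKO libraries against 0.236, 0.415, 0.466 and 0.394 FPKM in wildtype libraries. No label says which part of Has3 is deleted, so this level does not test the genotype.

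Of the 69 receptor genes, 27 reached 1 FPKM in 4 or more libraries and 42 did not. Transcripts of all 4 classes were present: 7 of 10 Toll-like receptors, 12 of 32 C-type lectin family genes, 5 of 24 NOD-like receptors and all 3 scavenger and mannose receptors reached the level. Among the 27, 19 stood at 1 FPKM or more in all 8 libraries, and 5 (Nlrc3, Nlrp3, Tlr1, Tlr6 and Tlr7) did so in all 4 Has-tKO libraries but not in all 4 wildtype libraries. Clec4a3, Tlr3 and Tlr5 fell short in at least 1 Has-tKO library, and each of the 27 had at least 1 library at that level in each genotype. A further 22 genes were listed at 0 in all 8 libraries.

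Clec4e, Clec5a and Nlrp3 rose in Has-tKO cells on the deposited values, with Has-tKO means 4.12, 3.16 and 2.82 times the wildtype means. No receptor gene fell on that scale. After scaling, Clec4e and Nlrp3 again passed, Clec7a passed with them, Clec5a missed the threshold, and Clec14a was lower in Has-tKO cells. Among all 9916 tested loci, 1.58% rose and 0.192% fell on the deposited values, and after scaling 1.38% of 9785 rose and 1.32% fell. Against that background, 3 of 27 receptor genes rose and 0 fell on the deposited values, and 3 of 26 rose and 1 fell after scaling, which removed Tlr5 from the test. At an unadjusted limma p under 0.05, 15 of the 27 differed, 14 of them higher in Has-tKO cells, where 16.7% of all tested loci differed and 14.4% were higher.

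The median difference of the 27 receptor genes was 0.45 on the log2 scale, against 0.16 over all tested loci, and 0.38 after scaling, against -0.03. The sign was positive for 24 of the 27 on the deposited values and for 20 of 26 after scaling, while 73.3% of all tested loci were positive on the deposited values and 44.8% after scaling. For 7 of the 27 (Clec12a, Clec4e, Clec5a, Clec7a, Nlrp3, Nod1 and Tlr1) every Has-tKO library lay above every wildtype library, as it did for 12.0% of all tested loci. After scaling the same held for 5 of 26 (Clec4e, Clec5a, Clec7a, Nlrp3 and Nod1), against 5.57% of all tested loci. In the other direction, Clec14a lay lower in every Has-tKO library on the deposited values (1 of 27, against 1.53% of all tested loci), and Clec14a and Nlrx1 did so after scaling (2 of 26, against 7.73%). In bulk libraries such as these, fewer cells of a type and less RNA per cell cannot be told apart.

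**Figure D1:**
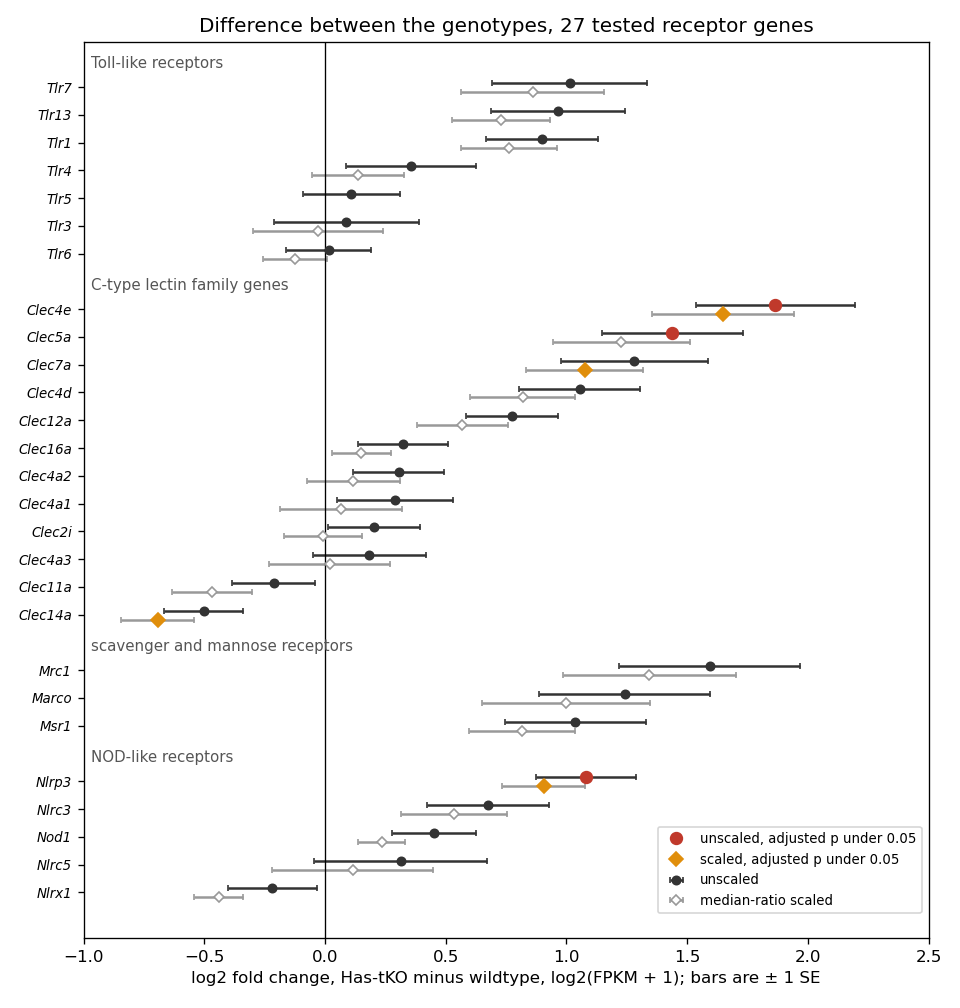
Difference of each tested receptor gene on the x axis (log2 fold change, Has-tKO minus wildtype, on log2(FPKM + 1)), with filled black points for deposited values, open points for median-ratio scaled values and bars for ± 1 SE. Large red circles and orange diamonds mark an adjusted p under 0.05 in limma. Clec4e has the largest difference, 1.86, and Clec14a the lowest, -0.50.

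The 3 genes that rose on the deposited values are shown by the 250 bases before their transcription start, from RefSeq on GRCm38.p6, as the promoter sequence of the genes on which the comparison turns. Clec4e lies on the minus strand (chr6:123289872-123290121), Clec5a on the minus strand (chr6:40585806-40586055) and Nlrp3 on the plus strand (chr11:59541319-59541568, the upstream one of the windows listed for the gene). Capitals mark a match to TTGCNNAA, the C/EBP motif, in Clec4e and to GGGANNTNC, a part of the NF-kappaB motif, in Clec5a. Both matches read on the strand opposite to the one printed, and Nlrp3 held no match to any motif searched.
Clec4e: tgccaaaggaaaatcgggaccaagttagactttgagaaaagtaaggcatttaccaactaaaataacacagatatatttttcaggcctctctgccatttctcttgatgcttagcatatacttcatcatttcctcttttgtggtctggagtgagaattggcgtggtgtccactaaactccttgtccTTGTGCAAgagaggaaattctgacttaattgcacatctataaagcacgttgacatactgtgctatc
Clec5a: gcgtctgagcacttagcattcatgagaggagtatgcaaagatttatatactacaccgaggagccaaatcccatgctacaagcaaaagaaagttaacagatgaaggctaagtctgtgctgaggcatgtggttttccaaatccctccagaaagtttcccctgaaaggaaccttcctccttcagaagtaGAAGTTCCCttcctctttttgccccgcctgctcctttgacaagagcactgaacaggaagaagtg
Nlrp3: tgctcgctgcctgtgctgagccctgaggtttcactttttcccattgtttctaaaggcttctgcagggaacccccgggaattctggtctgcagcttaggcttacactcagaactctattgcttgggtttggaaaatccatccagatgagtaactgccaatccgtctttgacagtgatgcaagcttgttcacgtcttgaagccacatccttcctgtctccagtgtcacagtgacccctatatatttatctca

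Each motif was searched on both strands in 250 bases before and 50 bases after the start, the motifs do not overlap in the windows shown, and 23 of the 27 tested receptor genes had a window. TTGCNNAA was found for 9 of the 23 genes (39.1%) and for 12.2% of 27025 genes in the RefSeq table. The 9 were Clec11a, Clec12a, Clec16a, Clec2i, Clec4e, Nod1, Tlr13, Tlr3 and Tlr6, of which only Clec4e passed in either fit. The 23 genes had 31 windows and the 27025 genes had 32851, and more windows per gene give more places for a match. GGGANNTNC was found for 5 of 23 (21.7%) and 16.9% of the table. TGANTCA, the AP-1 motif, was found for 2 of 23 (8.70%) and 8.97% of the table, and GAGGAAGT, the motif of the myeloid factor PU.1, for 1 of 23 (4.35%, Tlr1) and 3.69% of the table. These are matches of letters, and binding was not measured.

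Among the C-type lectins, Clec4e had the highest difference of all 27 genes. Clec4e encodes Mincle, a receptor for mycobacterial cord factor and for a nuclear protein released by dying cells. It had 25.7, 11.5, 22.9 and 13.6 FPKM in Has-tKO libraries 1 to 4 against 2.13, 7.48, 5.34 and 2.93 FPKM in wildtype libraries 1 to 4. The lowest Has-tKO library lay above the highest wildtype library, and the difference was 1.86 ± 0.33 (SE) with an adjusted p of 0.0203, or 1.65 with an adjusted p of 0.0271 after scaling. The call was lost without Has-tKO 1 (adjusted p = 0.1), without Has-tKO 3 (0.0523) and without wildtype 4 (0.0809), with log2 differences from 1.63 to 2.11 over the 8 fits that each left out 1 library.

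Clec5a, a receptor that signals through the adaptor Tyrobp and is found on monocytes and macrophages, had 13.1, 6.13, 9.81 and 8.65 FPKM in Has-tKO libraries against 2.10, 3.54, 4.97 and 1.31 FPKM in wildtype libraries. The groups did not overlap. The difference was 1.44 ± 0.29 (adjusted p = 0.0338) and 1.23 after scaling (adjusted p = 0.0555). The call rested on single libraries more than that of Clec4e did: it held in 2 of the 8 fits, those without Has-tKO 2 (adjusted p = 0.0481) and without wildtype 3 (0.0135), and reached 0.149 without Has-tKO 1.

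Clec7a, or Dectin-1, the receptor for fungal beta-glucan, had 15.0, 10.6, 13.4 and 8.07 FPKM in Has-tKO libraries against 1.66, 5.88, 6.42 and 4.14 FPKM in wildtype libraries. The groups did not overlap, and both fits gave p-values close to the threshold: the difference was 1.28 ± 0.30 with an adjusted p of 0.0550 on the deposited values and 1.07 with an adjusted p of 0.0499 after scaling. With 1 library left out, Clec7a passed in 1 of the 8 scaled fits and in 2 of the 8 on the deposited values. Clec4d, which pairs with Clec4e and lies next to it on chromosome 6, averaged 15.6 ± 3.15 FPKM in Has-tKO cells and 7.29 ± 3.18 FPKM in wildtype cells (1.05, adjusted p = 0.0550, and 0.82 on scaled values, adjusted p = 0.0829). Wildtype 3, at 11.8 FPKM, stood above Has-tKO 2 at 11.3 FPKM. Clec12a, an inhibitory receptor for uric acid crystals, averaged 5.04 ± 1.48 FPKM in Has-tKO cells and 2.46 ± 0.325 FPKM in wildtype cells without overlap (0.77, adjusted p = 0.0611, and 0.57 after scaling, adjusted p = 0.144).

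Clec14a, a lectin known from endothelial cells, had the most negative difference. It had 1.68, 2.27, 2.18 and 2.63 FPKM in Has-tKO libraries against 3.19, 4.50, 3.14 and 3.29 FPKM in wildtype libraries. The groups did not overlap, and the difference was -0.50 ± 0.16 (adjusted p = 0.139) on the deposited values and -0.69 after scaling (adjusted p = 0.0456). Scaling on expressed named loci alone gave -0.65 with an adjusted p of 0.0509. With 1 library left out, Clec14a passed in 2 of the 8 scaled fits and in 0 of the 8 on the deposited values. The summed level of 9 endothelial markers was 6.34 to 7.00 FPKM in Has-tKO libraries and 5.73 to 6.93 FPKM in wildtype libraries. After scaling it was 5.54 to 6.48 FPKM in Has-tKO libraries and 5.61 to 8.69 FPKM in wildtype libraries, and the groups overlapped on both scales. Most of the sum came from Egfl7, with deposited means of 4.40 FPKM in Has-tKO cells and 5.06 FPKM in wildtype cells. The part of endothelial cells in the level of Clec14a was not tested.

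The other lectin family genes did not pass in either fit. Clec11a, osteolectin, averaged 37.0 ± 5.76 FPKM in Has-tKO cells, below Mrc1 alone among the 27 genes, and 42.9 ± 5.48 FPKM in wildtype cells, the highest of the 27 there (-0.21, adjusted p = 0.551, and -0.47 after scaling, adjusted p = 0.165). Clec4a1, Clec4a2 and Clec4a3, receptors of the DCIR group on chromosome 6, had differences of 0.29, 0.31 and 0.18 (adjusted p = 0.564, 0.436 and 0.722). Their sequences are close copies of one another, so the split of reads between them is uncertain. Clec2i, a ligand of natural killer cell receptors, had 0.20 on the deposited values and -0.01 after scaling, and Clec16a had 0.32 (adjusted p = 0.410).

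**Figure D2:**
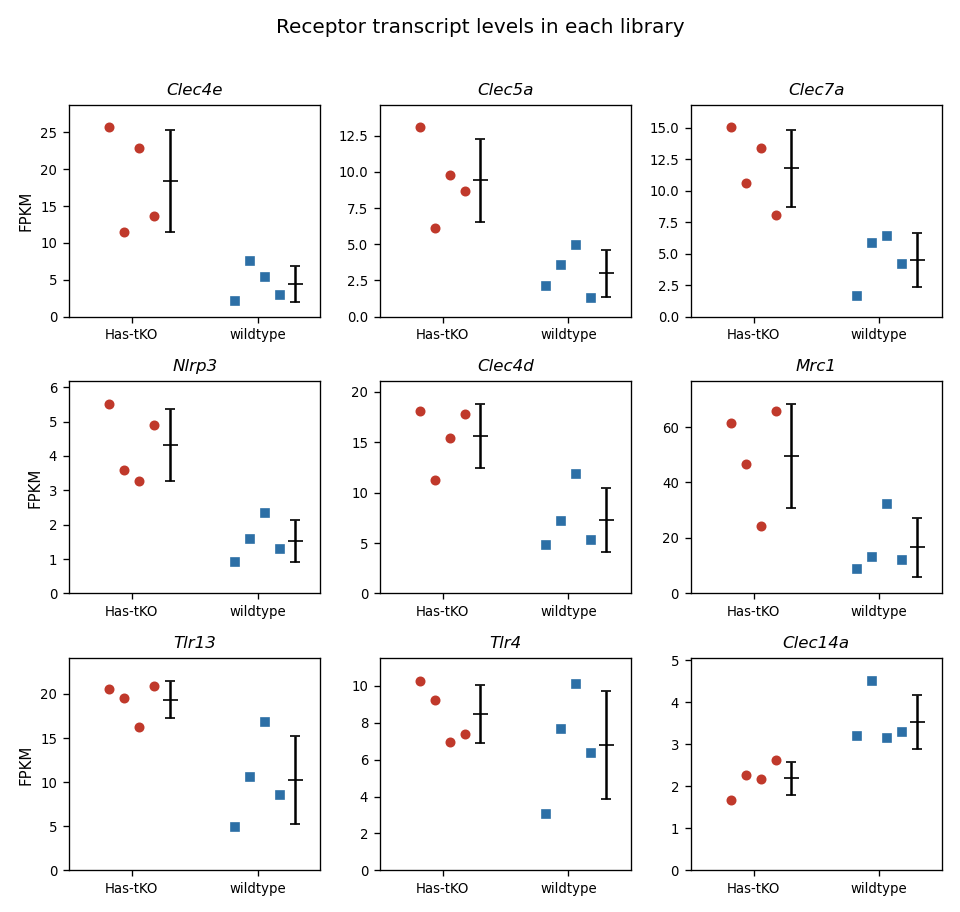
FPKM on the y axis for 9 receptor genes in the 4 Has-tKO libraries (red circles) and the 4 wildtype libraries (blue squares), in replicate order, with the mean ± SD beside each group. Clec4e, Clec5a, Clec7a and Nlrp3 show no overlap, Clec4d, Mrc1 and Tlr13 each have 1 wildtype library within the Has-tKO range, Tlr4 overlaps widely, and Clec14a lies lower in every Has-tKO library than in any wildtype library.

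Among the NOD-like receptors, Nlrp3, the sensor of the best known inflammasome, had 5.51, 3.59, 3.28 and 4.91 FPKM in Has-tKO libraries against 0.906, 1.59, 2.35 and 1.28 FPKM in wildtype libraries. All 4 Has-tKO libraries stood above all 4 wildtype libraries. The difference was 1.08 ± 0.21 (adjusted p = 0.0268) and 0.91 after scaling (adjusted p = 0.0309). The call was lost in 5 of the 8 fits with 1 library left out, namely without Has-tKO 1 (adjusted p = 0.132), Has-tKO 2 (0.0602), Has-tKO 4 (0.0827), wildtype 2 (0.0549) or wildtype 4 (0.111), while the log2 difference stayed between 0.96 and 1.23.

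Nod1, the sensor of a peptidoglycan fragment, had 6.91, 6.18, 6.86 and 6.74 FPKM in Has-tKO libraries against 3.12, 5.10, 5.60 and 4.96 FPKM in wildtype libraries. The groups did not overlap but the difference was small and did not pass (0.45, adjusted p = 0.212, and 0.23 after scaling, adjusted p = 0.231). Nlrc3, a negative regulator of innate signalling, averaged 2.51 ± 0.955 FPKM in Has-tKO cells and 1.20 ± 0.615 FPKM in wildtype cells (0.67, adjusted p = 0.195). Nlrc5, the transactivator of MHC class I genes, averaged 5.52 ± 3.13 FPKM and 4.05 ± 1.87 FPKM in Has-tKO and wildtype cells (0.31, adjusted p = 0.682). Nlrx1, a mitochondrial member of the family, had -0.22 (adjusted p = 0.573) and -0.44 after scaling (adjusted p = 0.0535), where its groups did not overlap.

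None of the 7 tested Toll-like receptors passed in either fit. The members nearest to the threshold were Tlr1, Tlr13 and Tlr7, and the values of Tlr3, Tlr5 and Tlr6 lay close together in the genotypes. Tlr13, which in mice binds bacterial ribosomal RNA in endosomes, was the Toll-like receptor with the highest level. It had 20.6, 19.6, 16.3 and 20.9 FPKM in Has-tKO libraries against 4.86, 10.6, 16.8 and 8.54 FPKM in wildtype libraries. Only wildtype 3 reached into the Has-tKO range (0.97, adjusted p = 0.0982, and 0.73 after scaling, adjusted p = 0.0967). Tlr7, the endosomal receptor for single-stranded RNA, averaged 4.48 ± 1.60 FPKM in Has-tKO cells and 1.88 ± 1.45 FPKM in wildtype cells (1.01, adjusted p = 0.131).

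Tlr4, the receptor for lipopolysaccharide, had 10.3, 9.26, 6.94 and 7.40 FPKM in Has-tKO libraries against 3.07, 7.66, 10.1 and 6.35 FPKM in wildtype libraries. The groups overlapped, with wildtype 3 above 3 of the Has-tKO libraries (0.36, adjusted p = 0.528, and 0.14 after scaling, adjusted p = 0.745). Tlr3, which binds double-stranded RNA, averaged 1.77 ± 0.752 FPKM in Has-tKO cells and 1.68 ± 0.972 FPKM in wildtype cells (0.09, adjusted p = 0.900, and -0.03 after scaling). Tlr5, the receptor for flagellin, averaged 1.03 ± 0.399 FPKM in Has-tKO cells and 0.886 ± 0.391 FPKM in wildtype cells (0.11, adjusted p = 0.813).

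Tlr1 and Tlr6, adjacent genes that each pair with Tlr2 to bind bacterial lipopeptides, did not have the same values. Tlr1 had 3.49, 3.16, 1.96 and 2.31 FPKM in Has-tKO libraries against 0.385, 1.01, 1.96 and 0.857 FPKM in wildtype libraries (0.90, adjusted p = 0.0716). The groups did not overlap, but Has-tKO 3 and wildtype 3 stood at nearly the same level. Tlr6 averaged 1.46 ± 0.233 FPKM in Has-tKO cells and 1.45 ± 0.455 FPKM in wildtype cells (0.02, adjusted p = 0.969, and -0.12 after scaling, adjusted p = 0.654). Within each library the log2 ratio of Tlr1 to Tlr6, on log2(FPKM + 1), was 0.29 to 0.81 in Has-tKO libraries and -0.65 to 0.18 in wildtype libraries, a difference of 0.88 without overlap. The two-sided exact permutation p was 0.0286, the smallest that 4 libraries against 4 can give, and 0.1 after adjustment over 7 pairs of tested receptor genes that follow each other on a chromosome. Of these pairs 3 are adjacent, and up to 7 protein-coding genes lie between the others. The pair Clec12a and Clec2i, with 7 genes between them, had the same p-values with a difference of 0.57, Clec4e and Clec4d had 0.81 (exact p = 0.0857, adjusted p = 0.150), and no pair passed after adjustment. The pairs were chosen after the values were seen, with the gene of the larger difference on top of each ratio, on deposited values only. In addition, Tlr1 and Tlr6 are close in sequence, so the split of reads between them is uncertain.

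The scavenger and mannose receptors had the highest class median, 1.24 on the log2 scale and 0.998 after scaling, over 3 genes, and none of the 3 passed. Mrc1, the mannose receptor, had 61.6, 46.6, 24.5 and 65.7 FPKM in Has-tKO libraries against 8.91, 13.1, 32.2 and 12.2 FPKM in wildtype libraries. Only wildtype 3 lay above a Has-tKO library, Has-tKO 3 (1.59 ± 0.38, adjusted p = 0.0550, and 1.34 after scaling, adjusted p = 0.0840). Marco, a collagen-like receptor of macrophages for particles and bacteria, averaged 26.4 ± 10.9 FPKM in Has-tKO cells and 11.2 ± 7.10 FPKM in wildtype cells (1.24, adjusted p = 0.0967). Msr1, the macrophage receptor for modified lipoproteins, averaged 13.7 ± 2.48 FPKM in Has-tKO cells and 6.65 ± 3.22 FPKM in wildtype cells (1.04, adjusted p = 0.0926).

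The libraries did not contribute evenly. Wildtype 3 was the highest wildtype library for 21 of the 27 receptor genes (17 of 26 after scaling), and wildtype 1 was the lowest wildtype library for 21 (12 of 26 after scaling). Has-tKO 1 was the highest Has-tKO library for 16 and Has-tKO 4 for 9. Without wildtype 3, 3.36% of all tested loci rose and 11 receptor genes did: Clec4d, Clec4e, Clec5a, Clec7a, Marco, Mrc1, Msr1, Nlrp3, Tlr1, Tlr13 and Tlr7. Without Has-tKO 1, and likewise without wildtype 4, limma called 0 receptor genes, with 13 and 15 at an unadjusted p under 0.05. In those fits 0.0517% and 0.103% of all tested loci rose, and 11.7% and 12.3% had an unadjusted p under 0.05. Without wildtype 1 and Has-tKO 4 together, Clec4e, Clec7a and Nlrp3 rose on the deposited values, and 2.42% of all tested loci did. With scaling as well, a fit added after the values were seen, Clec7a rose and Clec14a fell. Clec4e (adjusted p = 0.0526) and Nlrp3 did not pass in that fit, in which 110 of all loci rose and 133 fell.

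**Figure D3:**
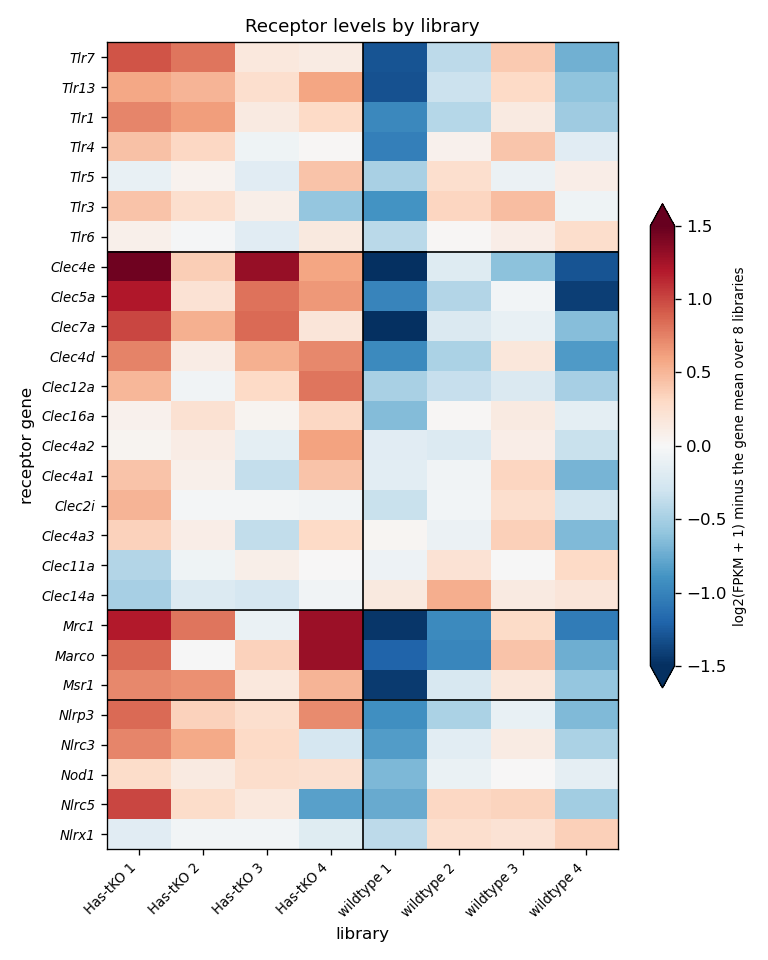
Each row is a tested receptor gene and each column a library, Has-tKO 1 to 4 left of wildtype 1 to 4, and colour gives log2(FPKM + 1) minus the mean of the gene over all 8 libraries. Wildtype 1 is the lowest wildtype library for 21 of the 27 genes and wildtype 3 the highest for 21, while the strongest red lies in Has-tKO 1 and Has-tKO 4, the highest Has-tKO libraries for 16 and 9 genes.

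Markers of macrophages were compared in the same way. Of 17 named macrophage markers all 16 that were tested had positive differences, from 0.44 to 2.20, and 5 rose on the deposited values (Fcrls, Mertk, Cx3cr1, Cd52 and Spi1) and 3 after scaling (Fcrls, Mertk and Cx3cr1). Over all tested loci 73.3% were positive and 1.58% rose on the deposited values, and 44.8% were positive and 1.38% rose after scaling. The summed level of the 17 markers was 1047, 766, 587 and 930 FPKM in Has-tKO libraries against 349, 377, 613 and 356 FPKM in wildtype libraries. Wildtype 3, the wildtype library with the highest sum, stood above Has-tKO 3, the Has-tKO library with the lowest. After scaling the sums were 531 to 939 FPKM in Has-tKO libraries and 350 to 583 FPKM in wildtype libraries. No macrophage marker was at 0, and the part of macrophage content in the receptor differences was not tested.

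Has-tKO 3 and wildtype 3, the libraries whose macrophage sums crossed, had the following receptor values. Clec4e stood at 22.9 and 5.34 FPKM in Has-tKO 3 and wildtype 3, Clec5a at 9.81 and 4.97, Clec7a at 13.4 and 6.42 and Nlrp3 at 3.28 and 2.35. Mrc1 stood at 24.5 and 32.2 FPKM in the same libraries, Marco at 20.4 and 21.7, Tlr13 at 16.3 and 16.8, Tlr7 at 3.16 and 3.90 and Msr1 at 10.3 and 10.4. This sets 1 library of each genotype beside the other and has no test. Clec4e, Clec5a, Clec7a and Nlrp3 did not overlap between the genotypes, so their order in this pair was fixed beforehand. Mrc1, Marco, Tlr13, Tlr7 and Msr1 come from the genes whose groups overlapped, and not all of the other such genes are listed. Some of those went the other way in this pair. Clec4d stood at 15.4 and 11.8 FPKM in Has-tKO 3 and wildtype 3, Nlrc3 at 2.31 and 1.93 and Clec11a at 42.0 and 39.2. The pair therefore does not sort the genes by macrophage content, whose part was not tested.

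Most markers of neutrophils and lymphocytes were at or near 0. The 12 neutrophil markers summed to 1.24 to 2.76 FPKM in Has-tKO libraries and 0.866 to 3.57 FPKM in wildtype libraries, with S100a9, Ly6g, Elane, Ltf, Retnlg and Cxcr2 at 0 in all 8. Among the others, Csf3r had 0.884 to 1.84 FPKM in Has-tKO libraries and 0 to 0.804 FPKM in wildtype libraries, without overlap, and Camp, whose groups overlapped, reached 3.10 FPKM in a wildtype library. The 12 markers of B, T and natural killer cells summed to at most 0.572 FPKM in Has-tKO libraries and 0.290 FPKM in wildtype libraries, with 7 at 0. Dendritic cell markers summed to 19.7 to 61.6 FPKM in Has-tKO libraries and 9.40 to 27.7 FPKM in wildtype libraries, with Flt3, Xcr1 and Siglech at 0, and the 9 osteoclast markers to 27.8 to 52.7 FPKM and 35.9 to 113 FPKM in Has-tKO and wildtype libraries. Mast cell and platelet markers summed to 14.6 to 32.7 FPKM in Has-tKO libraries and 10.4 to 14.1 FPKM in wildtype libraries, and to 12.8 to 30.3 FPKM and 10.5 to 21.3 FPKM in Has-tKO and wildtype libraries after scaling, where the groups overlapped. Most of that sum came from the platelet genes Pf4, with means of 13.7 FPKM in Has-tKO cells and 4.96 FPKM in wildtype cells (adjusted p = 0.1397), and Gp1bb, with 6.38 FPKM in Has-tKO cells and 6.14 FPKM in wildtype cells. Mcpt4, Tpsb2 and Gp9 of that list were at 0 in all 8 libraries. Itga2b and Ppbp had means of 0.552 and 0.0667 FPKM in Has-tKO cells and 0.537 and 0.0967 FPKM in wildtype cells. Of the markers of these other cell types, none passed on the deposited values and the osteoclast marker Acp5 was lower in Has-tKO cells after scaling (-1.71, adjusted p = 0.0494). For Acp5, scaling on expressed named loci alone gave -1.66 with an adjusted p of 0.0509. The other tested osteoclast markers went both ways on the deposited values. Mmp9 had -1.23, and Itgb3, Nfatc1 and Atp6v0d2 had 0.41, 0.25 and 0.13. The part of these cell types in the receptor differences was not tested. The 6 named mesenchymal and osteoblast genes of the labelled cell type summed to 207 to 284 FPKM in Has-tKO libraries and 280 to 569 FPKM in wildtype libraries, and to 186 to 257 FPKM and 424 to 578 FPKM in Has-tKO and wildtype libraries after scaling. Of the 5 that were tested none passed on the deposited values, and after scaling Alpl, the phosphatase of mineralizing osteoblasts, fell by 1.07 on the log2 scale (adjusted p = 0.0136) and Ibsp, bone sialoprotein, by 1.21 (adjusted p = 0.0140). Ibsp and Alpl made up most of the sum, with means of 147 and 67.4 FPKM in Has-tKO cells. Their wildtype means were 296 and 121 FPKM. Pdgfra, Thy1 and Runx2 had differences of 0.07, 0.07 and -0.31 on the deposited values. After scaling these were -0.17, -0.18 and -0.52, and none passed.

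**Figure D4:**
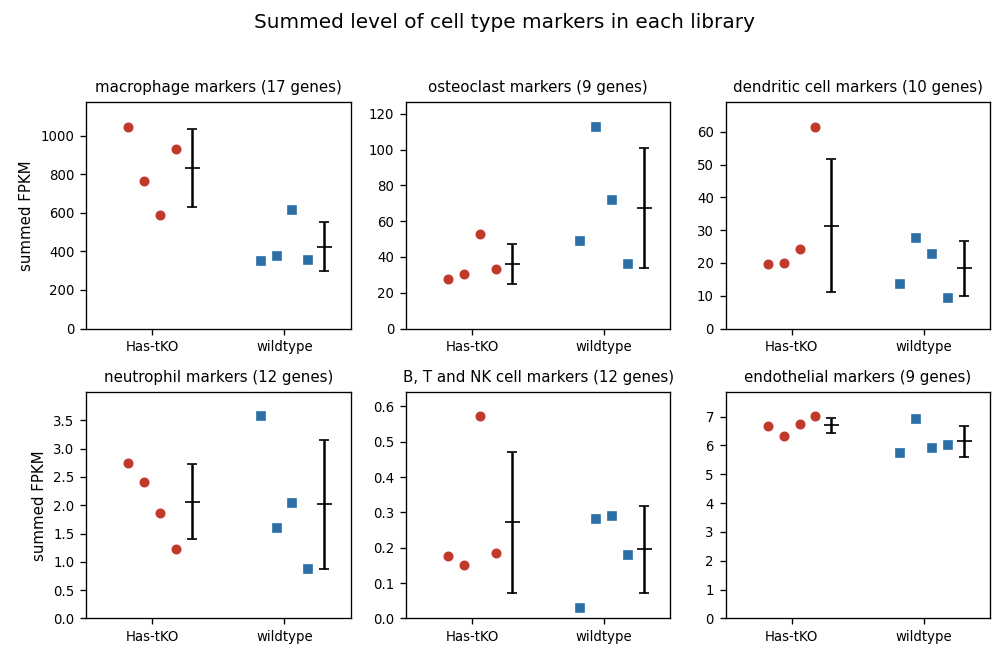
Summed FPKM on the y axis of 6 marker lists in the Has-tKO libraries (red circles) and the wildtype libraries (blue squares), with the mean ± SD beside each group. The macrophage sum is 587 to 1047 FPKM in Has-tKO libraries and 349 to 613 FPKM in wildtype libraries, while neutrophil and lymphocyte sums stay under 4 FPKM in every library.

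The partners of the receptors were described by 5 lists, some of whose genes stand in more than 1 list. Over the 73 tested genes of these lists, 8 rose and 0 fell on the deposited values, and 4 rose after scaling (Prkcd, Ptpn6, Tnfaip3 and Unc93b1). The shares over all tested loci were 1.58% higher and 0.192% lower on the deposited values, and 1.38% higher and 1.32% lower after scaling. The list of lectin receptor signalling held 5 of the 8: of 16 tested genes 5 rose, 2 of them after scaling, with a median difference of 0.87. Ptpn6, the phosphatase SHP-1, averaged 22.6 ± 4.16 FPKM in Has-tKO cells and 9.34 ± 3.09 FPKM in wildtype cells (1.22, adjusted p = 0.0229, and 0.0413 after scaling). Syk, the kinase below Clec4e and Clec7a, averaged 8.65 ± 1.83 FPKM in Has-tKO cells and 4.27 ± 0.884 FPKM in wildtype cells (0.87, adjusted p = 0.0411, but 0.0938 after scaling). Prkcd, a kinase, and Vav1, an exchange factor of the same route, rose by 0.87 and 1.07 on the log2 scale. After scaling, Prkcd passed (adjusted p = 0.0348) and Vav1 did not (0.0604). Fcer1g, the adaptor of Clec4e, missed the threshold (1.20, adjusted p = 0.0550), as did Tyrobp, the adaptor of Clec5a (0.72, adjusted p = 0.0947). Fgr and Card9 missed it as closely as Fcer1g (0.95 and 0.85, adjusted p = 0.0550 for each).

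Of 11 tested co-receptors and trafficking factors of Toll-like receptors, 1 rose. Unc93b1, which carries Toll-like receptors to endosomes, averaged 63.9 ± 9.33 FPKM in Has-tKO cells and 31.3 ± 6.78 FPKM in wildtype cells (1.02, adjusted p = 0.0241, and 0.0271 after scaling). Cd14, the co-receptor of Tlr4, had 0.80 (adjusted p = 0.0509), and Ly96, which binds lipopolysaccharide with Tlr4, had 0.14 (adjusted p = 0.811). Of 19 adaptors and kinases of the Toll-like receptors 1 rose, Tnfaip3, the ubiquitin-editing inhibitor A20 of NF-kappaB signalling, with 5.40 ± 1.81 FPKM in Has-tKO cells and 1.56 ± 0.565 FPKM in wildtype cells (1.31, adjusted p = 0.0203, and 0.0234 after scaling). Irak2 was the nearest of that list to miss the threshold (0.95, adjusted p = 0.0550). Myd88 itself had 0.55 (adjusted p = 0.145).

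Of 15 tested NOD and inflammasome partners, Slc15a3, a transporter of peptidoglycan fragments out of endosomes, rose by 0.73 on the log2 scale (adjusted p = 0.0488, but 0.138 after scaling). Casp4 and Gsdmd were the nearest to miss the threshold (0.83 and 0.70, adjusted p = 0.0550 and 0.067). Pycard and Casp1, the adaptor and the protease of the inflammasome, had 0.50 and 0.65 (adjusted p = 0.167 and 0.177). None of 14 tested other scavenger and lectin receptors passed. The nearest on the deposited values were the scavenger receptors Stab1 (1.35, adjusted p = 0.0781) and Cd36 (1.15, adjusted p = 0.0784). After scaling, Stab1 had an adjusted p of 0.130 and Cd36 of 0.0641. A further 11 of the 33 named genes of that list, among them 6 of the Cd209 family and Klrk1, were listed at 0 in all 8 libraries.

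Of the 42 receptor genes under 1 FPKM, 22 were at 0 throughout: 11 NOD-like receptors, 10 lectin family genes and 1 Toll-like receptor. Another 16 had means under 0.3 FPKM in both genotypes, with no value above 0.561 FPKM in any library. The other 4 did not overlap between the genotypes on the deposited values, 2 of them higher in Has-tKO cells and 2 lower. Among all 5194 named loci under the minimum with a genotype mean of 0.3 FPKM or more, 4.68% lay higher and 1.02% lower without overlap. Nod2, the sensor of muramyl dipeptide, had 1.18, 0.993, 0.825 and 1.43 FPKM in Has-tKO libraries against 0.338, 0.541, 0.605 and 0.323 FPKM in wildtype libraries. Nlrc4, the inflammasome sensor for flagellin, had 1.72, 1.59, 0.775 and 0.941 FPKM in Has-tKO libraries against 0.141, 0.762, 0.514 and 0.484 FPKM in wildtype libraries, and overlapped after scaling.

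Clec3a, a lectin known from cartilage, and Nlrp1a, an inflammasome sensor, lay the other way round. Clec3a had 0.541, 0, 0.270 and 0 FPKM in Has-tKO libraries against 1.17, 1.28, 0.727 and 0.750 FPKM in wildtype libraries. Nlrp1a had 0, 0, 0.0584 and 0 FPKM in Has-tKO libraries against 0.147, 0.749, 0.783 and 0.274 FPKM in wildtype libraries. With the minimum lowered to 0.5 FPKM in 4 libraries, Clec3a, Nlrc4 and Nod2 entered the limma test and none passed (-0.73, 0.61 and 0.54, adjusted p = 0.0749, 0.147 and 0.112).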

How the data were processed

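RNA-seq was made from 8 MSc cultures, 4 Has-tKO and 4 wildtype, each from a separate mouse, from 100 ng of RNA after ribosomal RNA depletion, with tagmented libraries that do not mark strand, per the labels' protocols. The values are FPKM (fragments per length of locus and per fragments sequenced) as deposited by the authors in a table of 76557 loci. fastp, HISAT2, StringTie and DESeq2 and the builds GRCm39 and hg38 are named, without versions or roles, in the submitters' processing notes. A locus merged from neighbouring or antisense genes holds the reads of all of them, and copies of one gene can share reads.

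FPKM are not counts, and whole reads could not be recovered (14.6 to 17.6% of values within 0.05 of a whole multiple, 10% by chance), so the depth is unknown and no count test was run. Loci without a name (26689) stayed out of the tests. Of 20 genes that every cell uses, 17 had a named row and 0 were at 0. Values were tested as log2(FPKM + 1) with limma 3.58.1 (trend, robust off) in R 4.3.3 over the 9916 named loci at 1 FPKM or more in at least 4 libraries, with genotype as the only term, Benjamini-Hochberg adjustment and a threshold of 0.05. A fold change on this scale understates the change of low genes. Scaled values were divided by median-ratio size factors over 19489 loci above 0 in all 8 libraries. The script was tested on simulated data. Ratios of neighbouring genes were compared by a two-sided exact permutation test. Motifs were searched in the RefSeq promoter table of GRCm38.p6, whose coordinates do not apply to the authors' build.

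The receptor genes and the lists of partners and markers were chosen with earlier results of these data known. Receptor genes named are all that reached 1 FPKM in 4 libraries, plus those below it with a mean of 0.3 FPKM or more in a genotype. Partner genes named are those that passed and some of those near the threshold, and Ly96, Tyrobp, Myd88, Pycard and Casp1, which were picked for their role after the values were seen. The values of 1 partner gene that passed are not reported here. Alternatives were the scalings, pseudocounts, filters, left-out libraries and replicate block given in the closing section.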

Additional observations from a re-analysis of the deposited data

Results flagged for a closer look

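In 62 groups of 4 libraries, 1 for each receptor gene named and each genotype, 3 had 1 library far from the other 3 of its genotype, where chance marks about 1 group in 20. Clec14a stood at 4.50 FPKM in wildtype 2, above the other wildtype libraries. Clec2i stood at 6.21 FPKM in Has-tKO 1, above the other Has-tKO libraries. Nlrp1a was at 0.0584 FPKM in Has-tKO 3 and at 0 in the other Has-tKO libraries. With the others at 0, any value above 0 is marked as far from them, so the chance rate does not apply to this group.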

How the results depend on the processing

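Alternatives were run one at a time for the receptor genes, the partner genes and all tested loci. Of 27 receptor genes 3 passed on the deposited values (176 of all loci, 8 partner genes). Scaling gave 4 receptor genes, 4 partner genes and 135 higher and 129 lower loci, where the deposited values gave 157 and 19, and scaling on expressed named loci, chosen after seeing the data, gave 4 receptor genes, 279 loci (171 higher, 108 lower) and 4 partner genes. Below, counts are receptor genes, all loci and partner genes in that order. A pseudocount of 0.1 gave 2, 111 and 5. No filter gave 0, 2 and 0, where 19 of 47 receptor genes and 38 of 91 partner genes had an unadjusted limma p under 0.05. The share of all loci under 0.05 in that fit is not given here, so these unadjusted counts have no background to be read against. Leaving out 1 library gave 0 to 11, 5 to 349 and 0 to 20, and after scaling 0 to 11 receptor genes (added after seeing the data). Leaving out wildtype 1 and Has-tKO 4 together gave 3, 320 and 10, and with scaling, also added, 2, 243 and 8. The replicate numbers did not pair the libraries (correlations of same-numbered libraries -0.08, 0.31, -0.12 and -0.06), and with the replicate block 4 receptor genes (Clec7a in addition), 147 loci and 4 partner genes passed. Over these fits other than the scaled ones with 1 library left out, the sign changed for 5 receptor genes with small values. Clec2i had -0.0077 on scaling. Tlr3 had -0.0272 on scaling and -0.0727 with both libraries out and scaling. Tlr6 had -0.12 on scaling, -0.091 on the other scaling, -0.16 with both out and -0.24 with both out and scaling. With 1 library left out, log2 differences ran from -0.0089 to 0.34 for Clec4a3, -0.20 to 0.30 for Tlr3, -0.0343 to 0.18 for Tlr5 and -0.12 to 0.11 for Tlr6. In scaled fits with 1 library left out it also changed for Clec4a1 (lowest value -0.15), Clec4a2 (-0.0383), Nlrc5 (-0.16) and Tlr4 (-0.034), and the other 18 genes kept their sign. The cause of the changes was not tested. The unknown depth sets how far values under 1 FPKM can be read.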
